A study of Mus musculus with 23 samples.

Results

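The muscle response to 10 d without its nerve was described by setting skeletal muscle of wild-type (WT) mice 10 d after denervation against innervated control muscle of WT mice. These libraries were taken by their labels and are 6 of the 23 samples of the series, 3 in each group. The series examines how transcription factors control the genes of the proteasome, and its other groups, which are further WT muscles and muscles with a knockout or a knockdown, were not compared here. RNA was read by sequencing, as raw read counts for 54446 genes. The labels give neither the muscle nor the strain, sex or age of the mice, nor how the nerve was interrupted, and they do not say whether the innervated muscle came from an unoperated limb of the same mice. Nor do they tie a library to an animal. The p-values speak only of the spread among libraries, part of which may be technical. That spread was estimated with 3 denervated knockout libraries of the same count table as well. Column names of both groups share numbers that the labels do not explain, and the main test did not pair libraries by them. The column name of denervated library 1 alone carries a suffix after its number, which the labels do not explain either. Libraries are called 1, 2 and 3 within each group, and values below are listed in that order.

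A motor nerve keeps a muscle fibre electrically active and, through signals at the neuromuscular junction, confines the transcription of synaptic genes to the few nuclei that lie under the nerve ending. When the nerve is lost, nuclei along the whole fibre are known to transcribe these genes again, and the muscle atrophies. Myogenin, encoded by Myog, is a basic helix-loop-helix factor that binds E-boxes, short DNA motifs of the form CANNTG, and is known to act on the genes of the muscle acetylcholine receptor. The adult receptor holds an epsilon subunit (Chrne) in place of the fetal gamma subunit (Chrng).

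Of the 6 genes of the synapse looked up, Chrna1, Chrnb1, Chrng, Chrne and Musk had a promoter in the RefSeq table for GRCm38.p6, and Chrnd did not. The 250 bases before each start are shown because the receptor subunits among them went apart in the counts, with Chrne not called and the others higher. They are written 5′ to 3′ on the strand of the gene, with each CAGCTG in capitals, an E-box that reads the same on both strands. The windows are chr2:73580339-73580588 (minus strand), chr1:87205561-87205810 (plus strand), chr4:58285712-58285961 (plus strand), chr11:69795938-69796187 (minus strand) and chr11:70619195-70619444 (minus strand).
Chrna1: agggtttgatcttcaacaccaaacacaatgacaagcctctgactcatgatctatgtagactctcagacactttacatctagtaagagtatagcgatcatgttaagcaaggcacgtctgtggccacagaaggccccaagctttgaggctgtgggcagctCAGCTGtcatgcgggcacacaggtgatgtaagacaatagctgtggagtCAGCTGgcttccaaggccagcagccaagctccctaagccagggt
Chrng: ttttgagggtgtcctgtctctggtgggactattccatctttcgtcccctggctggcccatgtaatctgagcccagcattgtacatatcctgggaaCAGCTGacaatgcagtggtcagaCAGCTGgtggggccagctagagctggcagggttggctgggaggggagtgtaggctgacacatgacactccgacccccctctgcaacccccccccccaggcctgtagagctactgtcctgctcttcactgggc
Musk: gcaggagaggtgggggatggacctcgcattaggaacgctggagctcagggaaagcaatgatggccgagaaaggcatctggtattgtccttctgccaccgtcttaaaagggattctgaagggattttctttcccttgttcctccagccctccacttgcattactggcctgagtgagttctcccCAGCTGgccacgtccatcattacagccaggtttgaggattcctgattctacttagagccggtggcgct
Chrnb1: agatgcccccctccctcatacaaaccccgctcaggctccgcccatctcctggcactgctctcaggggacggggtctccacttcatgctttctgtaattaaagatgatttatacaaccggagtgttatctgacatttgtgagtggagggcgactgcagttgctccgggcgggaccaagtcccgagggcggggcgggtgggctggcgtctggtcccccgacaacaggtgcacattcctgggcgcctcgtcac
Chrne: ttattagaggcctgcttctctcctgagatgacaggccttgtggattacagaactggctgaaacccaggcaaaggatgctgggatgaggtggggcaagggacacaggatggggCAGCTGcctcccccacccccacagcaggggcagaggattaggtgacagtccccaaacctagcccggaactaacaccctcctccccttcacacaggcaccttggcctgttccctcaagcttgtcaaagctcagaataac
The windows of Chrna1 and Chrng each held 2 CAGCTG, those of Musk and Chrne 1 each and that of Chrnb1 none. In Chrna1 they began 92 and 44 bases before the start, in Chrng 155 and 132, in Musk 68 and in Chrne 138. Of 32851 promoters in the table, 13.0% held at least 1 CAGCTG in this window and 1.26% at least 2. Any CANNTG, which takes in CAGCTG, was found at least 1 time in 66.2% of all promoters and at least 2 times in 31.8%. Each window shown held 3 apart from that of Chrne, which had 1, and the share of promoters with 3 was not counted. The RefSeq start of Chrng lies inside the gene as GENCODE draws it, so the 2 annotations place its start apart. Such a match describes letters only: the window of Chrne, which was not called, also held a CAGCTG, and that of Chrnb1, which rose, held none.

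The libraries held 24619026 to 42821396 counts. Among the lists of cell type markers, that of skeletal muscle fibres had the highest summed level in every library: its 12 genes summed to 109214 to 121147 CPM (read counts scaled to library size, with TMM factors) in innervated muscle and 76193 to 92289 CPM in denervated muscle. The Y-linked Ddx3y stood at 79.2, 61.9 and 82.7 CPM and 77.3, 83.5 and 80.9 CPM, and Xist at no more than 0.174 CPM in any library. The TMM factors were 0.820 to 0.852 in innervated and 0.979 to 1.08 in denervated libraries. A log2 difference in CPM therefore lies lower than that of plain shares of counts. Without TMM factors, mitochondrially encoded genes took 28.7 to 29.5% of counts in innervated and 18.4 to 23.4% in denervated libraries. Innervated library 2 stood apart from its group on the first principal component of the 6 libraries (65.4% of the variance), at -23.9 against -66.2 and -68.4, with the denervated libraries at 48.6 to 56.8. Of the genes called higher below, 63.9% were above both other innervated libraries in that library, and 63.6% of those called lower were below them, against 38.2% and 38.1% of all genes tested. Square brackets after a log2 difference therefore give its value without innervated library 2 wherever the fold change of a called gene moved by more than 1.5 times. After the counts of a list, square brackets give the counts that fits without 1 library, or without both innervated library 2 and denervated library 1, moved by more than 1.5 times or to or from 0. Denervated library 1 held the most macrophage transcripts, and of 261 called genes named below, 36 lost their call when at least 1 of the 6 libraries was left out, each of which is given with those libraries. Fewer cells of a type and less RNA per cell cannot be told apart in these bulk samples.

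At an adjusted p under 0.05 in edgeR's quasi-likelihood test, 2661 of 16146 genes (16.5%) were higher in denervated muscle and 2549 (15.8%) were lower. An unadjusted p under 0.05 was found for 7006 (43.4%). The counts of each gene list below are to be read against these shares, 16.5% higher and 15.8% lower. The median log2 difference over all genes tested was 0.02. Without innervated library 1 the counts were 1741 higher (10.5%) and 1768 lower (10.7%), and without innervated library 3 they were 1761 (10.6%) and 1835 (11.1%). Without innervated library 2 they were 2692 (16.3%) and 2591 (15.7%), without denervated library 1 they were 2366 (14.4%) and 2234 (13.6%), and without both they were 2617 (16.1%) and 2398 (14.7%). Without denervated library 2 they were 1893 (11.5%) and 1852 (11.2%), and without denervated library 3 they were 2039 (12.3%) and 1891 (11.4%). Differences below are log2 of denervated over innervated, with the standard error of the fit, and "rose" and "fell" are used for called genes only. In each list with 0 genes in a direction, DESeq2 and limma-voom also gave 0, apart from small heat shock genes, of which DESeq2 called 1 lower. Among called genes, 1155 rose and 790 fell by at least 1 on the log2 scale, and 73 and 19 by at least 4. Abundant genes fell more often than they rose: of 82 genes that averaged 1000 CPM or more, 42 fell and 19 rose. The called-higher genes together held 9.36 ± 1.36% of the CPM of all genes tested in innervated and 22.9 ± 1.35% in denervated muscle (SD, n = 3), and the called-lower genes 52.2 ± 2.12% and 34.5 ± 1.61%. The genes were called in these same libraries, so the calls fix the direction of the shift and may enlarge its size. The plot of differences against level shows where the genes named below lie.

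**Figure D1:**
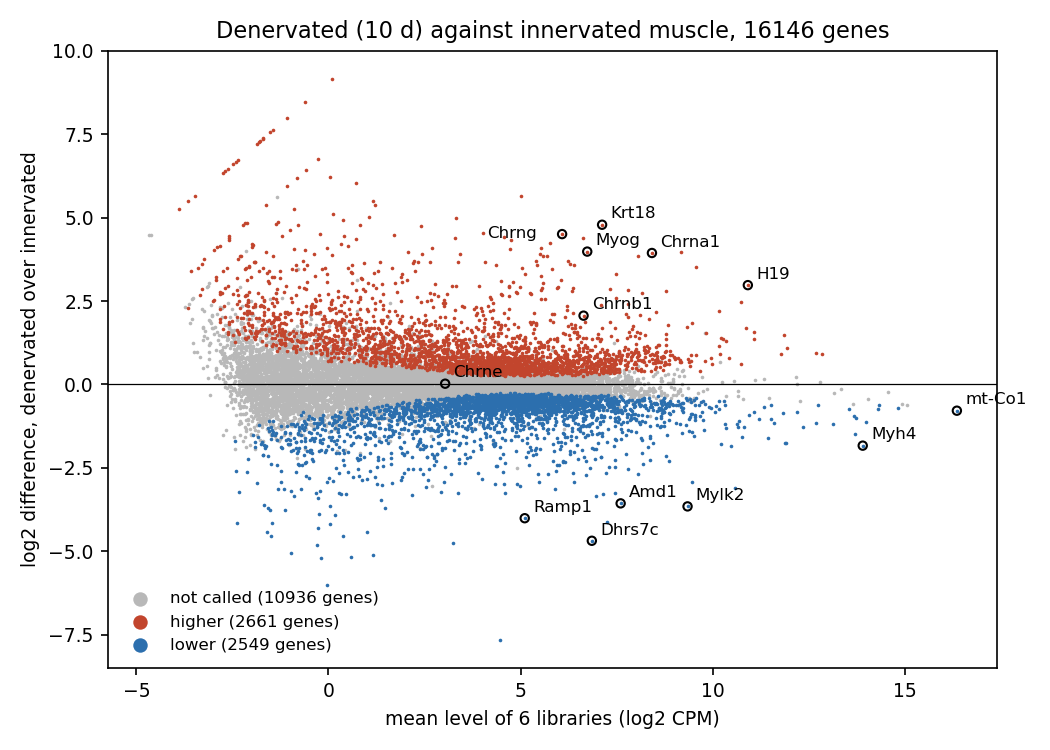
Log2 difference (denervated over innervated) against the mean level of 6 libraries (log2 CPM) for 16146 genes, coloured by call. The 2661 higher and 2549 lower genes spread over the whole range of levels. Of the labelled receptor subunits, Chrng (4.51), Chrna1 (3.94) and Chrnb1 (2.06) lie above 0, and Chrne (0.02, not called) lies near 0.

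Acetylcholine receptor subunits gave some of the greatest rises. Of 5 subunits, 4 rose and 0 fell, with a median of 3.94; Chrne, the adult epsilon subunit, was not called (unadjusted p = 0.908; limma-voom and DESeq2 gave no call either). Chrna1, the ligand-binding alpha subunit (chromosome 2, 73563215 to 73580338, GRCm38), stood at 8.03, 108 and 8.51 CPM in innervated muscle and at 511, 718 and 703 CPM in denervated muscle. Every denervated library was above every innervated one, and innervated library 2 was over 10 times above the other 2 of its group. The log2 difference was 3.94 ± 0.88 [6.28] (adjusted p = 0.00731). Chrng, the fetal gamma subunit (chromosome 1, 87204657 to 87212694), went from 0.197, 16 and 0.105 CPM to 84.5, 151 and 155 CPM, a difference of 4.51 ± 1.10 [9.79] (adjusted p = 0.0111). Its neighbour Chrnd, the delta subunit (chromosome 1, 87190607 to 87200070), went from 1.82, 22.5 and 1.92 CPM to 117, 219 and 233 CPM, by 4.40 ± 0.83 [6.66]. In each of these genes the groups did not overlap, and innervated library 2 lay between them.

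Chrnb1, the beta subunit (chromosome 11, 69784036 to 69795943), had the smallest rise of the 4 and the highest innervated mean per kilobase of exon. It stood at 28.5, 49.5 and 37.4 CPM and 148, 163 and 172 CPM, a log2 difference of 2.06 ± 0.19 (adjusted p = 0.000119). Chrne (chromosome 11, 70614883 to 70619216) stood at 8.13, 9.70 and 6.59 CPM and 10.5, 7.02 and 7.28 CPM, so the groups overlapped (0.02 ± 0.20, adjusted p = 0.943). Levels of different genes were compared per kilobase of exon. On that scale the mean of Chrna1 went from 9.49 to 147 CPM per kb, that of Chrnb1 from 15.2 to 63.7, and that of Chrnd from 2.66 to 57.8. Chrng made up 0.975, 40.0 and 0.640% of the sum of Chrng and Chrne per length in innervated libraries and 76.5, 89.7 and 89.6% in denervated ones. The order of the 2 subunits was thus turned over in every denervated library.

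**Figure D2:**
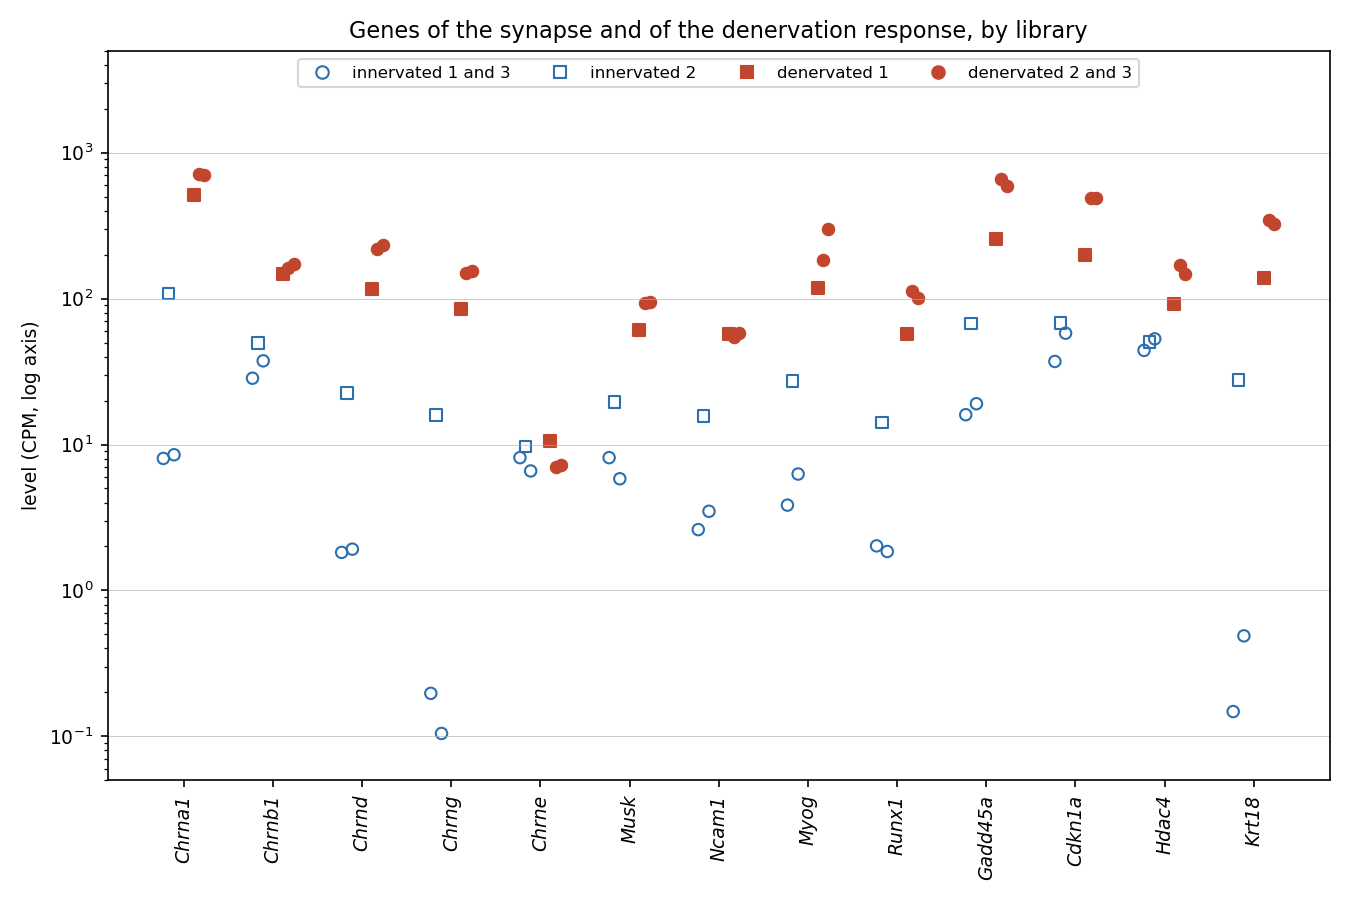
Level of 13 genes of the synapse and of the response to denervation in each library (CPM, log axis); open circles are innervated, filled ones denervated, and innervated library 2 and denervated library 1 have their own marks. The 3 innervated and 3 denervated values are apart for 12 genes and overlap for Chrne, and over all genes tested 23.9% had all denervated libraries above and 22.6% all below.

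The other genes of the junction moved less evenly. Of 17 tested organisers of the junction, 4 rose, 3 fell and 10 did not pass, with a median of 0.16. These counts are near the shares over all genes tested, 16.5% higher and 15.8% lower. Innervated library 2 was above both others of its group in 11 of the organisers. Musk, the receptor kinase that clusters acetylcholine receptors (chromosome 4, 58285960 to 58374303), stood at 8.13, 19.6 and 5.82 CPM and 61.1, 93.3 and 95.4 CPM (2.88 ± 0.39 [3.59], adjusted p = 0.000595). Ncam1, an adhesion molecule of the synapse (chromosome 9, 49502136 to 49798925), went from 2.61, 15.7 and 3.49 CPM to 57, 54.5 and 58 CPM (2.92 ± 0.52 [4.20]). Lrp4, the agrin receptor that works with Musk, rose by 0.70, and Prkar1a, a regulatory subunit of protein kinase A, by 0.48. Ache, the esterase that ends each signal, went the other way, from 22.7, 19.1 and 15.4 CPM to 7.61, 3.08 and 2.70 CPM (-2.09 ± 0.35, adjusted p = 0.00172). Utrn, which encodes utrophin of the junctional membrane, fell by 0.68 and the synaptic laminin chain gene Lamb2 by 0.53 on the log2 scale. Leaving out 1 library ended the call of Lamb2 (innervated 3 or denervated 2, highest adjusted p = 0.119).

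Ion channels of the fibre membrane fell more often than they rose. Of 24 channel and pump genes, 11 fell, 5 rose and 8 did not pass, with a median of -0.67. Scn4a, the sodium channel of adult muscle, fell from 502 ± 104 to 311 ± 41 CPM (SD, n = 3; -0.69 ± 0.19). Scn4a was chosen here after its values were seen. The call of Scn4a (innervated 1, 3 or denervated 1, 3, highest adjusted p = 0.0776) was lost without 1 library.

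Among potassium channels, Kcnk5, a background channel, went from 1.48, 3.65 and 1.01 CPM to 13.6, 51.3 and 71.1 CPM (4.41 ± 0.63 [5.22]), with denervated library 1 the lowest of its group. Kcnn3, a small-conductance channel opened by calcium, stood at 6.01, 23.9 and 5.02 CPM and 106, 171 and 156 CPM (3.61 ± 0.52 [4.72]). The falls took in the chloride channel Clcn1, which sets the resting conductance of the fibre, from 209.6, 164 and 234 CPM to 79.6, 69.9 and 71.2 CPM (-1.46 ± 0.18, adjusted p = 0.000415). Scn4b, a beta subunit of sodium channels, fell by 2.26, the inward rectifier Kcnj12 by 2.08, and the voltage-gated channels Kcnc1 and Kcna7 by 2.29 and 1.93. Kcng4, a modulatory subunit, was among the greatest drops of all (115, 86.2 and 119.8 CPM to 14.6, 8.42 and 13.3 CPM).

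The machinery that turns the action potential into calcium release was mostly lower. Of 25 genes of excitation-contraction coupling and the calcium store, 13 fell, 4 rose and 8 did not pass, with a median of -0.50. Dhrs7c, an enzyme of the sarcoplasmic reticulum (chromosome 11, 67798187 to 67816002), had the greatest drop among the genes named here, from 249, 183 and 237 CPM to 10.0, 7.47 and 8.48 CPM (-4.69 ± 0.17, adjusted p = 9.09e-07). The junctophilins Jph2 and Jph1, which tie the store to the T-tubule, fell by 1.60 and 0.97, the calcium buffer Casq1 from 1865 ± 423 to 751 ± 175 CPM, and Hrc, another store protein, by 0.99. Atp2a1, the calcium pump of fast fibres, fell by 0.95. The pump of slow fibres and heart, Atp2a2, rose from 47.3, 66.9 and 53.5 CPM to 125, 128 and 154 CPM (1.28 ± 0.15). Small inhibitors of these pumps rose with it: Sln, sarcolipin, stood at 1.08, 28.9 and 1.12 CPM and 117, 163 and 138 CPM (3.70 ± 1.00 [6.98]), and Pln, phospholamban, rose by 1.70 at levels under 5 CPM. Fits without 1 library did not call Pln (innervated 1 or denervated 2, highest adjusted p = 0.0811). Cacng1, the gamma subunit of the voltage sensor, rose by 1.12.

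Regulators of muscle transcription went in both directions. Of 22 myogenic factors and their regulators, 10 rose, 6 fell and 6 did not pass [3 falls without innervated 1 or 3 or denervated 3] (median 0.33). Myog (chromosome 1, 134289989 to 134292548) stood at 3.84, 27.3 and 6.28 CPM in innervated and 118, 184 and 301 CPM in denervated libraries, with no overlap (3.98 ± 0.65 [5.30], adjusted p = 0.0015). Its relatives Myf6 and Myod1 rose by 2.08 and 1.52, the latter chosen after its values were seen. Runx1, a factor known to limit damage in denervated muscle (chromosome 16, 92601466 to 92826149), went from 2.02, 14.1 and 1.85 CPM to 56.9, 113 and 101 CPM (3.86 ± 0.66 [5.55]). Tead4 and the helix-loop-helix inhibitor Id2 rose by 1.71 and 2.26.

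The class II histone deacetylases, which hold activity-dependent genes in check, did not move together. Hdac4 rose from 44.2, 50.5 and 53 CPM to 92.6, 169 and 147 CPM (1.47 ± 0.20, adjusted p = 0.000591). Hdac5 and Hdac7 fell by 0.72 and 0.56. Dach2, a repressor known to hold down Myog in innervated muscle, went from 5.22, 2.71 and 2.58 CPM to 0.433, 0.755 and 0.262 CPM (-2.85 ± 0.47). Eya1 and Mef2d fell by 0.54 and 0.44. Not called without 1 of the libraries were Eya1 (innervated 1, 3 or denervated 3, highest adjusted p = 0.0575) and Mef2d (innervated 1, 3 or denervated 1, 2, 3, highest adjusted p = 0.122).

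Contractile genes changed by isoform. Of 7 myosin heavy chain genes, 3 rose (Myh2, Myh3, Myh8), 2 fell (Myh1, Myh4) and 2 did not pass (Myh7, Myh7b). Myh4, the fastest isoform (chromosome 11, 67238029 to 67260446), stood at 29086, 12241 and 30785 CPM and 6343, 7524 and 6359 CPM (-1.83 ± 0.38, adjusted p = 0.00523). Innervated library 2 was the lowest of its group and still above all denervated ones. Myh1, an isoform of intermediate speed, stood at 5617, 8481 and 7991 CPM and 3176, 3719.9 and 2292 CPM (-1.27 ± 0.22). Myh2, the fast oxidative isoform (chromosome 11, 67171027 to 67197517), rose from 669, 1775 and 799 CPM to 3512, 2909.9 and 3203 CPM (1.57 ± 0.33). The embryonic isoform Myh3 rose from 0.640, 25.2 and 1.43 CPM to 102, 122 and 87.8 CPM (3.47 ± 0.92 [6.59]), and the perinatal isoform Myh8 by 0.94. With 1 library left out, there was no call of Myh8 (innervated 1 or denervated 1, highest adjusted p = 0.0684).

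Shares per length put these changes on 1 scale. Of the summed level of 6 myosins, Myh4 held 83.1, 56.1 and 78.8% in innervated and 50.9, 55.1 and 56% in denervated libraries, so innervated library 2 was close to the denervated group. Myh2 held 1.61, 6.86 and 1.72% and 23.8, 18 and 23.8%. Myh1 held 15.2, 36.8 and 19.4% and 24.1, 25.8 and 19.1%, with overlapping groups. The slow isoform Myh7 stayed under 0.006% in all 6 libraries (0.443, 1.37 and 1.32 CPM and 0.939, 0.587 and 0.968 CPM; -0.36 ± 0.45, adjusted p = 0.575), and Myh3 stayed under 1%.

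**Figure D3:**
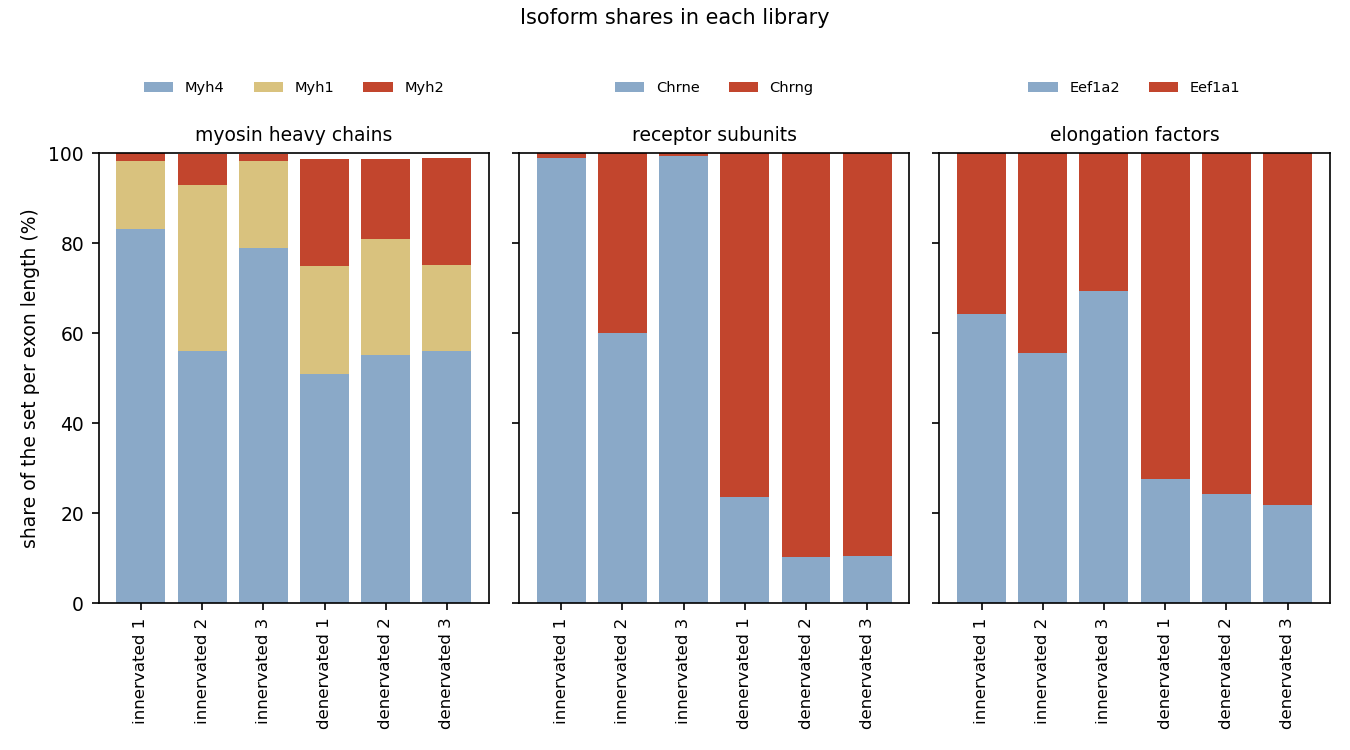
Share of each isoform in its set per exon length (%), in each of 6 libraries: Myh4, Myh1 and Myh2 among 6 myosin heavy chains (the others are left blank), and the pairs Chrng and Chrne, Eef1a1 and Eef1a2. Myh2, Chrng and Eef1a1 hold a larger share in every denervated than in every innervated library.

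The thin filament and the light chains showed the same mixture. Of 10 troponin and tropomyosin genes, 3 rose and 3 fell [1 fall without innervated 3 or both innervated 2 and denervated 1]. The slow and cardiac troponins Tnnt1 (2.36, 19.6 and 3.97 CPM to 70.8, 117 and 65.1 CPM, 3.24 ± 0.64 [4.71]), Tnni1 (2.43 [4.22]) and Tnnt2 (2.26 [3.38]) rose from low levels, and innervated library 2 held more of each than the others of its group. Leaving out 1 library ended the calls of Tnni1 (innervated 1, 3 or denervated 1, highest adjusted p = 0.0638) and Tnni2 (innervated 1, 3 or denervated 1, highest adjusted p = 0.079). The slow and cardiac troponin Tnnc1 was not called (0.56), nor were the slow and cardiac light chains Myl2 (-1.28) and Myl3 (-0.50). Fast Tnni2 fell by 0.63, and Tpm1 from 18001 ± 2278 to 9037 ± 398 CPM. Of 11 light chain and myosin-binding genes, 2 rose and 3 fell. The embryonic light chain Myl4 rose by 3.14 [4.35] and the binding protein Mybph by 2.59. Mylk2, the kinase that phosphorylates the fast light chain (chromosome 2, 152911352 to 152923068), stood at 1273, 818 and 1533 CPM and 123, 77.5 and 86.9 CPM (-3.66 ± 0.26), and the related kinase gene Mylk4 fell by 2.92 beside the fast binding protein Mybpc2 (-3.10).

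Structural genes around the myofibril were split. Of 22 genes of actin, the Z-disc and titin, 8 rose and 7 fell (median -0.10). Ankrd2, a titin-bound protein that answers to stretch, went from 38.5, 129.6 and 41.5 CPM to 357, 429 and 344 CPM (2.43 ± 0.41 [3.24]), Myom3 of the M-band from 12.5, 70.9 and 14.4 CPM to 269, 409 and 304 CPM (3.32 ± 0.58 [4.61]), and Smpx, a small muscle protein, rose by 1.19. Xirp1, which marks repair of the myofibril, stood at 121, 342 and 151 CPM and 1140.2, 522 and 472 CPM, highest in denervated library 1. Within the myozenins of the Z-disc, Myoz2 of slow fibres rose by 1.69 [2.50], while Myoz1 and Myoz3 fell by 1.79 and 1.67. Actc1, cardiac actin, fell from 185, 125 and 229.5 CPM to 37, 23.6 and 21.8 CPM (-2.71 ± 0.43), and Cmya5 and Myom2 by 1.19 and 1.40. In the membrane complex that joins fibre and matrix, 6 of 17 genes fell and 0 rose [1 rise without denervated 1 or both innervated 2 and denervated 1; 3 falls without innervated 1 or denervated 2] in edgeR, where 1 had an unadjusted p under 0.05 and was higher. They were led by Nos1, neuronal nitric oxide synthase (157 ± 19.2 to 54.4 ± 1.93 CPM), and Sspn, sarcospan (-0.66).

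Most genes of the other cytoskeleton rose. Of 19 keratin, intermediate filament and tubulin genes, 12 rose, 1 fell and 6 did not pass [2 falls without denervated 1 or both innervated 2 and denervated 1], with a median of 0.96. Krt18, a keratin of simple epithelia (chromosome 15, 102028180 to 102032027), stood at 0.148, 27.6 and 0.488 CPM and 138, 348 and 322 CPM (4.79 ± 1.24 [9.61]). Its partner Krt8, chosen after its values were seen, lies close by (chromosome 15, 101996698 to 102004482) and went from 0.148, 15.9 and 0.139 CPM to 59.3, 76.1 and 120.3 CPM (3.90 ± 1.07 [9.19]). In both genes innervated library 2 lay between the groups. Des, the intermediate filament of muscle, rose from 2514 ± 321 to 5403 ± 1123 CPM, while Synm, which copolymerises with it, fell from 589, 329 and 540.4 CPM to 91.2, 115 and 73.3 CPM (-2.38 ± 0.24). Tubb6 and Tuba4a, a beta and an alpha tubulin, rose by 2.22 [2.84] and 1.15, and Tubb4b and Tubb2b by 0.68 and 1.31. Tubulin genes are close copies of each other, and reads may be split between them.

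Other genes of extreme fold change joined the synaptic ones. Ranked by log2 difference, and leaving aside called genes that averaged under 8 CPM, whose groups overlapped or whose symbol is provisional (such as Rik or Gm names), the top 10 included S100a8, Krt18, Chrng, Kcnk5, Chrnd, Plekhh1, Ankrd55, Ces2c and Myog. S100a8, a calcium-binding protein of neutrophils, stood at 1.03, 2.00 and 0.593 CPM and 17.8, 128 and 46.1 CPM (5.66 ± 0.79 [6.34]), a wide spread in denervated muscle. Its partner S100a9 stood at 1.77, 1.29 and 1.22 CPM and 0.770, 1.34 and 0.968 CPM and was not called. Plekhh1 went from 0.591, 6.09 and 0.384 CPM to 31.4, 62.7 and 60.0 CPM (4.33 ± 0.72 [6.76]), Ankrd55 from 0.493, 14 and 0.244 CPM to 55.7, 118 and 90.3 CPM (4.09 ± 0.97 [7.96]), and the carboxylesterase Ces2c from 0.443, 7.73 and 0.105 CPM to 36.5, 43.1 and 69.8 CPM (4.05 ± 0.85 [7.63]). In these 3 genes innervated library 2 held several times more than the other innervated libraries.

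Among the lowest by the same rule were Dhrs7c, Mylk2 and Kcng4, given above, and Amd1, given below with the polyamine genes. Ramp1, a partner of the receptor for calcitonin gene-related peptide, went from 58.1, 58.8 and 78.1 CPM to 4.67, 3.66 and 3.74 CPM (-4.01 ± 0.19, adjusted p = 5.27e-06). Slc16a3, the lactate exporter of fast fibres, went from 299.6, 323 and 325 CPM to 52.7, 24.1 and 23.2 CPM (-3.24 ± 0.29). Slc25a25, a mitochondrial carrier of ATP-Mg and phosphate, stood at 163, 106 and 412 CPM and 17.7, 17.5 and 32.1 CPM (-3.34 ± 0.47), with innervated libraries that differed widely. Mlf1 fell by 3.30 and Ces1d, a lipid esterase, by 3.24.

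By change in level the picture was another, since it follows abundance. The greatest rises in mean CPM among called genes were Actn3, a Z-disc actinin of fast fibres (5164 ± 710.5 to 9648 ± 2925 CPM), Car3, a carbonic anhydrase (4514 ± 621 to 8702 ± 566), and Fhl1, a LIM protein of muscle (1183, 3575 and 1098 CPM to 6670.1, 5694 and 4135 CPM). The calls of Actn3 (innervated 2, 3 or denervated 2, 3, highest adjusted p = 0.0757) and Fhl1 (innervated 1, 3 or denervated 1, 2, highest adjusted p = 0.073) were lost without 1 library. The long noncoding RNA H19, Des, Hspb8, Tpt1 (2435 ± 516 to 4568 ± 532 CPM) and Myh2 followed. The greatest drops were in mt-Co1, Myh4, mt-Co2, mt-Nd2, mt-Nd1, mt-Nd4, Tpm1 and mt-Atp6. Of these, mt-Nd1, a complex I subunit, stood at 22637, 21672 and 22557 CPM and 10508, 11652 and 8645 CPM (-1.12 ± 0.20), and mt-Co1, a complex IV subunit, at 107985, 109257 and 102398 CPM and 56531, 73703 and 55156 CPM (-0.79 ± 0.24). Fits without 1 library did not call mt-Co1 (innervated 1, 2, 3 or denervated 1, 3, highest adjusted p = 0.104), mt-Co2 (innervated 1, 2, 3 or denervated 1, 2, 3, highest adjusted p = 0.137), mt-Nd4 (innervated 1, 3 or denervated 1, 3, highest adjusted p = 0.0769) and mt-Atp6 (innervated 1, 2, 3 or denervated 1, 3, highest adjusted p = 0.168).

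Growth arrest and p53 target genes were partly induced. Of 23, 10 rose, 3 fell and 10 did not pass [6 rises without innervated 3] (median 0.44). Gadd45a, a stress gene known to drive denervation atrophy (chromosome 6, 67035096 to 67037457), stood at 16, 67.8 and 19 CPM and 257, 657 and 589 CPM (3.86 ± 0.56 [4.84], adjusted p = 0.000844). Cdkn1a, the cell cycle inhibitor p21 (chromosome 17, 29090976 to 29100727), stood at 37.1, 68.2 and 57.9 CPM and 199, 486 and 491 CPM (2.85 ± 0.34). In both genes denervated library 1 held less than the other 2 and still more than all innervated libraries. The paralogs of Gadd45a went the other way, Gadd45g from 59.7, 89.2 and 140.1 CPM to 18.2, 17 and 23.8 CPM (-2.29 ± 0.29) and Gadd45b by -1.31. Eda2r, a p53 target and receptor for ectodysplasin A2, rose from 15.7, 28.6 and 15.9 CPM to 97.6, 186 and 139 CPM (2.80 ± 0.28), and Bbc3, a pro-apoptotic gene, by 1.44. Ccng1, also a p53 target, fell by 0.62.

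In the insulin and growth factor pathway, 7 of 26 genes rose and 4 fell [4 rises without innervated 1 or 3 or denervated 3; 2 falls without denervated 2 or both innervated 2 and denervated 1]. Irs1, the docking protein of the insulin receptor, went from 71.2, 36.9 and 64.4 CPM to 15.1, 11.6 and 11.4 CPM (-2.17 ± 0.26, adjusted p = 0.000339). The kinases downstream of it rose: Akt2 from 253 ± 10.9 to 502 ± 136 CPM, Mtor by 0.88 and Akt1 by 0.69. Not called without 1 of the libraries were Akt1 (innervated 1, 3 or denervated 2, 3, highest adjusted p = 0.0881), Igfbp3 (innervated 3 or denervated 2, 3, highest adjusted p = 0.0687) and Fst (innervated 1, 3 or denervated 2, highest adjusted p = 0.0662). Igfbp5, a binding protein for the insulin-like growth factors, rose by 1.32, Igf2r by 0.97, and Igfbp3 and Foxo4 fell by 1.41 and 0.83. Of 30 genes of myostatin, activin and bone morphogenetic protein signalling, 5 rose and 8 fell [3 rises without innervated 1 or 3 or denervated 2; 4 falls without innervated 1 or denervated 3 and 5 without denervated 2]. Mstn, the inhibitor of muscle growth (chromosome 1, 53061640 to 53068079), fell from 50.6, 21.7 and 45.9 CPM to 20.1, 17.5 and 15.2 CPM (-1.16 ± 0.26), its antagonist Fst rose by 1.01, and its receptor Acvr2b fell by 1.71. The transforming growth factor Tgfb1 and its receptor Tgfbr1 rose by 1.47 and 1.08, and Smad4 fell by 0.58.

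Protein breakdown genes were read in groups, by the step they serve. The atrophy ligase genes Trim63 (329, 248 and 333 CPM to 255, 630.2 and 607 CPM) and Fbxo32 (479, 355 and 516 CPM to 416, 767 and 676 CPM) were not called, with denervated library 1 inside or near the innervated range. Without that library their adjusted p was 0.00232 and 0.0208. Of 15 atrophy ligases, 2 rose and 1 fell [1 rise without innervated 1, 2 or 3 or denervated 2 and 4 without denervated 1; 2 falls without innervated 2 or denervated 1 and 3 without both innervated 2 and denervated 1]. The rises were Fbxo30 (0.91) and Mdm2 (0.49), and the fall was Asb2, a ligase for filamins (792, 636 and 902 CPM to 147, 161 and 164 CPM, -2.30 ± 0.18). With 1 library left out, there was no call of Mdm2 (innervated 1, 2, 3 or denervated 2, highest adjusted p = 0.121). Psmc2, an ATPase of the proteasome base, stood at 150.1, 136 and 131 CPM and 179, 214 and 202 CPM (0.51 ± 0.11). Pax4, a transcription factor targeted in other groups of the series, had 0 counts in all 6 libraries, which allows up to 0.0701 to 0.122 CPM per library for counting error only, and Nrf1, alpha-PAL, was at 14.4 ± 1.80 and 11.9 ± 2.01 CPM (-0.27 ± 0.15, adjusted p = 0.191).

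Of 14 subunits of the 20S core 10 rose [5 rises without innervated 3 and 6 without innervated 1 or denervated 3], and of 19 subunits of the 19S particle 14 rose, with 0 lower in either at an unadjusted p under 0.05. Of 10 genes of the immunoproteasome, proteasome activators and deubiquitinases 2 rose, the proteasome-bound deubiquitinases Uchl5 (0.58) and Usp14 (0.57), and 1 fell, the activator subunit Psme1 (-0.36) [0 falls without innervated 1 or 3 or denervated 1 or both innervated 2 and denervated 1]. Among calpains, calcium-activated proteases, Capn2 and the small subunit gene Capns1 rose by 0.69 and 0.47, and muscle-specific Capn3 and Capn1 fell by 0.99 and 0.54. Leaving out 1 library ended the calls of Psme1 (innervated 1, 2, 3 or denervated 1, highest adjusted p = 0.075) and Capns1 (innervated 1, 3 or denervated 2, 3, highest adjusted p = 0.0955). Of 26 autophagy genes, 7 rose, 3 fell and 16 did not pass. Map1lc3a, a membrane marker of autophagosomes, stood at 96.4, 191 and 111 CPM and 379.7, 567 and 606 CPM (1.96 ± 0.27), and its relatives Gabarapl1 and Gabarap rose by 0.78 and 0.74. The cargo receptors Sqstm1 and Nbr1 rose by 0.76 and 0.74. Tfeb, the master regulator of lysosomal genes, fell from 60.5, 56.7 and 60.3 CPM to 28, 26 and 32.1 CPM (-1.04 ± 0.15), and the kinase Ulk2 by 0.72. Of 24 lysosomal genes, 10 rose and 1 fell [0 falls without innervated 1 or 3 or denervated 2 or 3] (median 0.37), with Atp6v1a of the proton pump at 1.18 and Hexa, a hexosaminidase, at 0.98. Macrophage markers, which rose in the same libraries (below), also hold lysosomal genes, and their part in these values was not tested.

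Chaperone genes rose more often than any fell. All 8 subunits of the CCT chaperonin, which folds actin and tubulin, rose [5 rises without denervated 2], with differences from 0.30 for Cct6a to 0.84 for Cct3. The call of Cct6a (innervated 1, 2, 3 or denervated 1, 2, 3, highest adjusted p = 0.149) was lost without 1 library. Cct3 stood at 87.6, 94.4 and 89.6 CPM and 151, 171 and 163 CPM (0.84 ± 0.12). Of 8 small heat shock and Bag3 genes, 6 rose. Hspb8, a partner of the co-chaperone Bag3, rose from 412, 810.0 and 369 CPM to 2434, 3229.9 and 3099.7 CPM (2.46 ± 0.32), Hspb7 from 201, 793 and 229.9 CPM to 2220.5, 1789.5 and 1624 CPM (2.20 ± 0.45 [3.13]), and Cryab by 1.40. Hspb1 and Hspb3 rose by 1.74 and 0.79 and Bag3 itself by 0.65, while Hspb6 (-0.50 ± 0.20, lower in DESeq2) and Hspb2 (-0.15 ± 0.16) were not called. Fits without 1 library did not call Bag3 (innervated 1, 3 or denervated 1, highest adjusted p = 0.119). The summed level of the list went from 1969.5 to 4012 CPM in innervated to 7262 to 8266 CPM in denervated libraries, with the upper innervated value in library 2.

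Of 14 cytosolic Hsp70 and Hsp90 genes, 9 rose and 0 fell in edgeR, and none had an unadjusted p under 0.05 with a lower level. The stress-induced Hsp90aa1 rose from 86.5, 101 and 79.9 CPM to 230.5, 176 and 158 CPM (1.08 ± 0.16) and its constitutive relative Hsp90ab1 by 0.81. In the endoplasmic reticulum 17 of 25 folding genes rose and 0 fell [11 rises without innervated 1 or 3], with a median of 0.44. The lectin chaperone Canx, the stress factors Xbp1 and Atf6, and the oxidoreductase Pdia6 rose by 0.62, 0.66, 0.63 and 0.75.

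Genes of the integrated stress response, in which Atf4 is translated when initiation slows, were also divided. Of 21, 9 rose, 3 fell and 9 did not pass (median 0.67). Atf4 mRNA itself fell from 208, 181 and 180.3 CPM to 140.4, 127 and 115 CPM (-0.57 ± 0.12, adjusted p = 0.00475), Cebpg by 0.68 and Psph, an enzyme of serine synthesis, by 0.72. Atf3 rose from 4.73, 28.9 and 6.10 CPM to 123, 60.4 and 54.5 CPM (2.56 ± 0.60 [3.86]), Mthfd2, a mitochondrial folate enzyme, from 3.84, 8.50 and 3.73 CPM to 26.9, 24.5 and 20.5 CPM (2.14 ± 0.27), and Ppp1r15a, which ends the response, by 0.88. The stress hormone Gdf15 rose by 2.72 [4.38] at levels up to 2.05 CPM. Of 20 cytosolic tRNA synthetases, 10 rose and 1 fell [4 rises without innervated 3 or denervated 2 and 6 without innervated 2], with Dars and Vars at 1.30 and 1.14 and Yars at -0.39. Of 15 amino acid transporters, 5 rose and 3 fell [3 rises without innervated 1 or 3 or denervated 1 or both innervated 2 and denervated 1]: Slc7a5, the large neutral carrier, rose by 1.79 [2.54], and the cationic carrier Slc7a2 fell by 1.47.

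Enzymes of polyamine synthesis went opposite ways. Odc1, which makes putrescine, rose from 85.3, 107 and 58.1 CPM to 254, 301 and 255 CPM (1.70 ± 0.21, adjusted p = 0.000392). Amd1, the decarboxylase that supplies the aminopropyl groups (chromosome 10, 40287458 to 40302186), fell from 495, 251 and 332 CPM to 31.6, 34.3 and 25.2 CPM (-3.57 ± 0.24, adjusted p = 5.53e-05). The groups were far apart in both. Smox, which oxidises spermine back to spermidine, fell from 148 ± 29.7 to 19.5 ± 1.13 CPM (-2.92 ± 0.18). The synthases Sms and Srm rose by 1.04 and 0.56, and Oaz2, an antizyme, fell by 0.47. Not called without 1 of the libraries was Srm (innervated 1, 2, 3 or denervated 1, 2, 3, highest adjusted p = 0.134). Of 12 genes in all, 3 rose and 4 fell. The fourth fall was Amd2, a near-identical copy of Amd1 under 1 CPM, so its reads may belong to Amd1.

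The 2 isoforms of an elongation factor went opposite ways. Eef1a1 and Eef1a2 encode the elongation factor that brings tRNA to the ribosome, the latter being the form of adult muscle and neurons. Eef1a1 rose from 748, 1151 and 725 CPM to 2279.9, 3079 and 3164 CPM (1.70 ± 0.21), and Eef1a2 fell from 1128, 1209 and 1369.6 CPM to 729.6, 824 and 737 CPM (-0.69 ± 0.15). Per length, Eef1a1 held 35.7, 44.3 and 30.7% of the pair in innervated and 72.3, 75.7 and 78.2% in denervated libraries. Of 22 translation factors, 11 rose and 5 fell [5 rises without innervated 1 or denervated 2 or 3 and 6 without innervated 3]. Eif4a1, the helicase of initiation, rose by 1.54, and Eif4e, the cap-binding factor, and Eif4g1, its scaffold, fell by 0.56 and 0.58. Of 20 ribosome biogenesis genes, 9 rose and 0 fell [5 rises without denervated 2] in edgeR, where 13 had an unadjusted p under 0.05, all higher. Myc, which drives ribosome production, rose from 3.65, 7.05 and 4.11 CPM to 11.7, 15 and 16.6 CPM (1.53 ± 0.26), and Nop58 and Bop1 by 0.77 and 1.00.

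Energy supply genes fell broadly, with the single genes Slc2a1 and Ampd3 among the exceptions. Of 30 genes of glucose entry, glycolysis and glycogen, 20 fell and 1 rose [2 rises without denervated 2 or both innervated 2 and denervated 1], the transporter Slc2a1 (9.61, 10.4 and 9.52 CPM to 18, 16.4 and 19.5 CPM, 0.86 ± 0.11). Ldha, lactate dehydrogenase, fell from 2593 ± 164 to 866 ± 96.3 CPM and Phkg1, a subunit of phosphorylase kinase, by 2.05. Of 11 genes of the creatine kinase system and the purine nucleotide cycle, 6 fell and 1 rose. Ckm, muscle creatine kinase, fell from 12523, 11056 and 14251 CPM to 4671, 5668 and 6234 CPM (-1.19 ± 0.21). Ampd1, the AMP deaminase of muscle, fell from 1434, 699.9 and 1158 CPM to 398, 393 and 329 CPM (-1.56 ± 0.25), whereas its relative Ampd3 rose from 10.4, 21.9 and 12 CPM to 75.7, 140.0 and 121 CPM (2.91 ± 0.30, adjusted p = 0.000212). The other enzymes of that cycle, Adssl1 and Adsl, fell by 1.46 and 0.67.

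Of 25 genes of fatty acid uptake and oxidation, 12 fell and 0 rose [1 rise without both innervated 2 and denervated 1] in edgeR, with 1 higher at an unadjusted p under 0.05. Lpl, the lipase that frees fatty acids at the vessel wall, fell by 1.21 and Acadm by 0.94. Of 16 regulators of mitochondria, 6 fell and 2 rose [3 falls without denervated 2 or both innervated 2 and denervated 1]: Perm1, a muscle target of PGC-1, went from 269, 331 and 284 CPM to 67.9, 57.7 and 56.5 CPM (-2.28 ± 0.23), the retinoid receptor Rxrg fell by 1.90, and Esrrg and Nrip1 rose by 0.66 and 0.64. Oxidative defence rose in part: of 25 genes, 11 rose and 4 fell [5 rises without innervated 1 or denervated 3 and 6 without innervated 3 or denervated 2; 2 falls without innervated 3 or denervated 1], with Srxn1, sulfiredoxin, at 1.14, while mitochondrial Sod2 fell by 1.07. The metal-binding Mt1 and Mt2 rose by 1.67 and 2.52 [3.32].

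Genes that follow electrical activity within minutes to hours did not share a direction. Of 18, 9 rose, 2 fell and 7 did not pass. Nr4a1 and Nr4a3, nuclear receptors induced by contraction, fell from 256, 165 and 389 CPM to 57.7, 44.8 and 43.1 CPM (-2.48 ± 0.33) and by 1.46. Junb, a subunit of AP-1, rose from 3.40, 9.32 and 4.99 CPM to 29.5, 45.9 and 62.2 CPM (2.93 ± 0.36), Jun by 1.10, Egr1 by 1.74 [2.46] and the calcineurin inhibitor Rcan1 by 1.45. In the circadian clock, 4 of 19 genes rose and 5 fell. Per2, Cry2, Dbp and Ciart rose by 1.24, 1.10, 1.17 and 1.68, and the falls included Nfil3, Cry1, Bhlhe41 and Hlf, which fell by 1.15, 0.71, 0.87 and 1.04. The labels give no time of day, so its part in these values was not tested. Of 12 genes known to answer to glucocorticoids, 1 rose (Mt2) and 2 fell [4 falls without innervated 2], the factor Zbtb16 (-1.61) and the receptor Nr3c1 itself (-0.55).

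Genes of inflammatory signalling rose more often than they fell. Of 19 genes of NF-kB, TWEAK and the IL-6 family, 8 rose and 2 fell [1 fall without innervated 2 or 3 or denervated 1, 2 or 3 or both innervated 2 and denervated 1]. Tnfrsf12a, the TWEAK receptor, stood at 14.3, 45 and 12 CPM and 141, 113 and 117 CPM (2.37 ± 0.42 [3.23]). Nfkb2 and Relb, the noncanonical pair, rose by 1.44 and 1.10, while canonical Nfkb1 fell by 0.28. With 1 library left out, there was no call of Nfkb1 (innervated 1, 2, 3 or denervated 1, 2, 3, highest adjusted p = 0.154). Of 15 secreted factors of muscle, 2 rose and 5 fell (Mstn among them) [3 falls without innervated 1 or denervated 1 or 2 or both innervated 2 and denervated 1]. Vegfa, which sustains capillaries, fell from 290.1, 322 and 259 CPM to 133, 91.8 and 100.4 CPM (-1.42 ± 0.15, adjusted p = 0.000253) and the cytokine Il15 by 1.25, whereas Ctgf, a matrix-inducing factor, rose by 1.80 [2.45]. Of 12 imprinted growth genes, 3 rose and 2 fell [0 falls without innervated 1 or 3 or denervated 2 and 1 without denervated 1 or 3 or both innervated 2 and denervated 1]. H19 (chromosome 7, 142575529 to 142578143) went from 178, 929 and 199 CPM to 3005, 2918 and 4383 CPM (2.98 ± 0.57 [4.19]), and Peg3 rose by 2.37. Igf2, the neighbour of H19, stayed at or under 1.65 CPM in every library and was not called (0.52 ± 0.35). Igf2r, given above, was the third to rise. Cdkn1c and Dlk1 fell by 1.01 and 1.34. Leaving out 1 library ended the calls of Cdkn1c (innervated 1, 3 or denervated 1, 2, highest adjusted p = 0.0925) and Dlk1 (innervated 1, 3 or denervated 2, 3, highest adjusted p = 0.166).

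Markers of other cells in the muscle divided by type. Of 21 macrophage markers, 18 rose and 0 fell [5 rises without innervated 1, 7 without denervated 1 and 9 without innervated 3], with a median of 1.39. Their summed level was 307, 450.5 and 147 CPM in innervated and 1144, 557 and 648 CPM in denervated libraries, so the groups did not overlap and denervated library 1 was far above the rest. Gpnmb stood at 4.14, 9.68 and 1.99 CPM and 34.1, 16.7 and 28.1 CPM (2.29 ± 0.46 [3.14]), Lgals3, a galectin of phagocytes, at 5.32, 12 and 3.84 CPM and 34.1, 18.3 and 83.5 CPM (2.66 ± 0.56 [3.32]), and Trem2, a receptor of lipid-handling macrophages, at 0.246, 0.959 and 0.384 CPM and 7.29, 2.29 and 2.91 CPM (2.88 ± 0.59 [3.67]). Of 13 genes of antigen presentation, 5 rose [2 rises without innervated 1 or 3], all of the class II pathway: H2-Eb1 (39.7, 59.9 and 25.8 CPM to 158, 94.9 and 122 CPM, 1.58 ± 0.29), H2-Ab1, H2-Aa, Cd74 and their activator Ciita (1.19). The calls of Ciita (innervated 1, 3 or denervated 1, 3, highest adjusted p = 0.183), Cd74 (innervated 1, 3, highest adjusted p = 0.0559) and H2-Aa (innervated 1, 3, highest adjusted p = 0.0589) were lost without 1 library. Of 19 chemokines and receptors, 5 rose and 1 fell [0 rises without innervated 1 or 3, 1 without denervated 1 or 2 and 8 without innervated 2; 0 falls without innervated 1, 2 or 3 or denervated 2 or 3], among them the monocyte receptor Ccr2 (4.83, 11.3 and 2.41 CPM to 43.8, 16.6 and 11.9 CPM, 1.94 ± 0.63 [2.77]). Fits without 1 library did not call Ccr2 (innervated 1, 3 or denervated 1, 2, highest adjusted p = 0.152). Of 19 interferon response genes 1 rose and 2 fell [0 rises without innervated 1 or denervated 2 or 3; 0 falls without innervated 3 or denervated 2 and 1 without innervated 1 or denervated 3]. Of 5 tested neutrophil markers, S100a8 alone was called [2 rises without denervated 3]. The other 4 stayed under 4 CPM in every library, and Ly6g, which defines neutrophils, was at or under 0.0274 CPM.

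Vessel markers were lower. Of 12 endothelial markers, 8 fell and 0 rose in edgeR, where 10 had an unadjusted p under 0.05, all lower, with a median of -0.62 and a summed level of 1212 to 1343 CPM against 673 to 892. Flt1 and Kdr, receptors for the product of Vegfa, stood at 138, 126 and 151 CPM and 76.9, 80.5 and 84.7 CPM (-0.78 ± 0.10), and at 141, 144 and 147 CPM and 91.3, 68.8 and 89.2 CPM (-0.79 ± 0.15). Of 11 smooth muscle and pericyte markers, 10 fell and 0 rose [5 falls without innervated 3 or denervated 2] (all 11 were lower at an unadjusted p under 0.05; median -0.87). Acta2, smooth muscle actin, fell by 0.95 and Rgs5, a pericyte gene, from 896 ± 147 to 489 ± 47 CPM. Not called without 1 of the libraries was Rgs5 (innervated 1 or denervated 2, highest adjusted p = 0.055). Adipocyte markers fell in 6 of 10 [2 falls without innervated 1 or denervated 2 and 3 without innervated 2 or denervated 1 or both innervated 2 and denervated 1] and rose in 1, Cebpa (1.1), with the lipid droplet gene Plin4 at -2.16. The share of cells of each type was not measured. TMM-scaled levels are relative to the bulk of the genes tested and not to all counts of a library.

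Of 13 tested Schwann cell markers, 7 fell, 1 rose and 5 did not pass. The myelin genes Mbp (29.2, 37.5 and 53.5 CPM to 6.62, 6.07 and 6.73 CPM, -2.63 ± 0.20), Prx (-3.23) and Mal (-3.46) fell, and Ngfr, a receptor that Schwann cells make when they lose contact with axons, rose from 2.02, 2.19 and 2.41 CPM to 9.36, 4.78 and 5.08 CPM (1.54 ± 0.29). Of 5 tested markers of axons and neurons, whose cell bodies lie outside the muscle, 1 rose (Uchl1, 1.08, 4.91 and 0.802 CPM to 13.5, 16.7 and 11.2 CPM) and 1 fell (Syp, 2.22, 1.89 and 1.67 CPM to 0.987, 1.06 and 0.864 CPM) [2 rises without innervated 2 or both innervated 2 and denervated 1]. Of 9 satellite cell markers, 1 rose, Myf5 (1.1, at levels up to 2.77 CPM), and 2 fell [0 rises without innervated 2 or 3 or denervated 2 or 3 and 2 without denervated 1; 0 falls without innervated 3 or both innervated 2 and denervated 1 and 1 without denervated 1, 2 or 3]. With 1 library left out, there was no call of Myf5 (innervated 2, 3 or denervated 2, 3, highest adjusted p = 0.0774). Of 26 cell cycle genes, 4 rose and 2 fell [2 rises without innervated 3], with Rrm2 at 2.65 [4.15] and Aurka at -1.78. Neither count is above the shares over all genes tested, 16.5% higher and 15.8% lower.

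**Figure D4:**
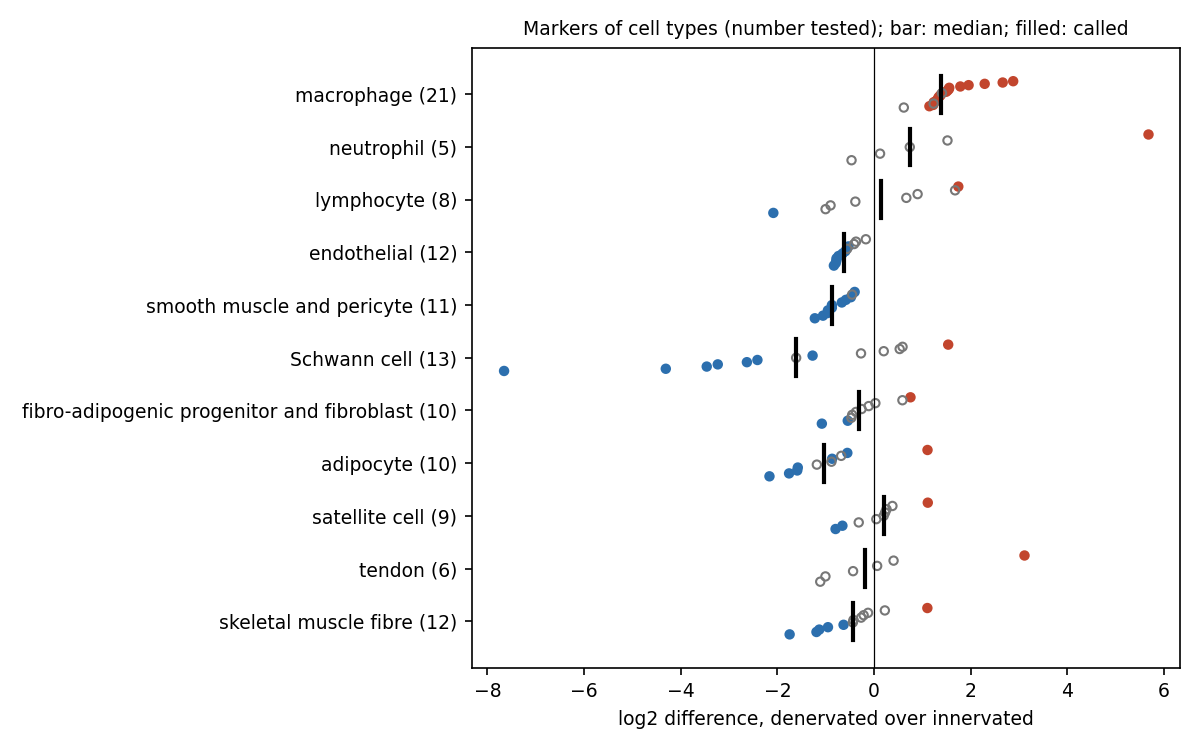
Log2 difference (denervated over innervated) of each tested marker of 10 cell types and of the skeletal muscle fibre, with the median of each list as a bar; filled points were called. Most macrophage markers lie above 0 (18 of 21 called), and endothelial and smooth muscle markers lie mostly below it (8 of 12 and 10 of 11 called).

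Few collagen genes were called. Of 18 collagen chains, 2 rose (Col19a1, Col14a1), 2 fell (Col5a3, Col15a1) and 14 did not pass [1 rise without innervated 1 or 3 or denervated 1 or 3; 1 fall without innervated 1 or 3 or denervated 2 or 3], with a median of -0.30. Leaving out 1 library ended the calls of Col14a1 (innervated 1, 3 or denervated 1, 3, highest adjusted p = 0.111) and Col15a1 (innervated 1, 3 or denervated 2, 3, highest adjusted p = 0.0917). Of 28 matrix glycoproteins and crosslinkers, 4 rose and 5 fell [2 falls without innervated 1 or denervated 2 or 3, 3 without innervated 2 or 3 and 8 without denervated 1]. Bgn, biglycan, rose from 101, 207 and 99.7 CPM to 416, 338 and 367 CPM (1.46 ± 0.25), the crosslinking enzyme Lox by 1.45 and Thbs1 by 1.18. The basement membrane genes Hspg2, perlecan, and Lama4 fell by 0.61 and 0.67. Of 22 matrix proteases and inhibitors, 3 rose and 3 fell [6 rises without both innervated 2 and denervated 1 and 7 without innervated 2]. The glycoprotein and protease counts from all libraries are near the shares over all genes tested, 16.5% higher and 15.8% lower. Mmp3, stromelysin, rose from 1.92, 3.56 and 1.22 CPM to 10.9, 20.3 and 13.2 CPM (2.70 ± 0.44). Within the inhibitors of these proteases Timp1 rose by 2.20 [3.62], and Timp3 and Timp4 fell by 1.19 and 1.77. The calls of Timp1 (innervated 1, 3 or denervated 1, 3, highest adjusted p = 0.104) and Hspg2 (innervated 3, highest adjusted p = 0.0585) were lost without 1 library. Scx, a factor of tendon cells, rose from 2.91, 8.77 and 2.09 CPM to 27.1, 43.8 and 50.5 CPM (3.10 ± 0.48 [4.04]), the only call among 6 tendon markers.

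**Figure D5:**
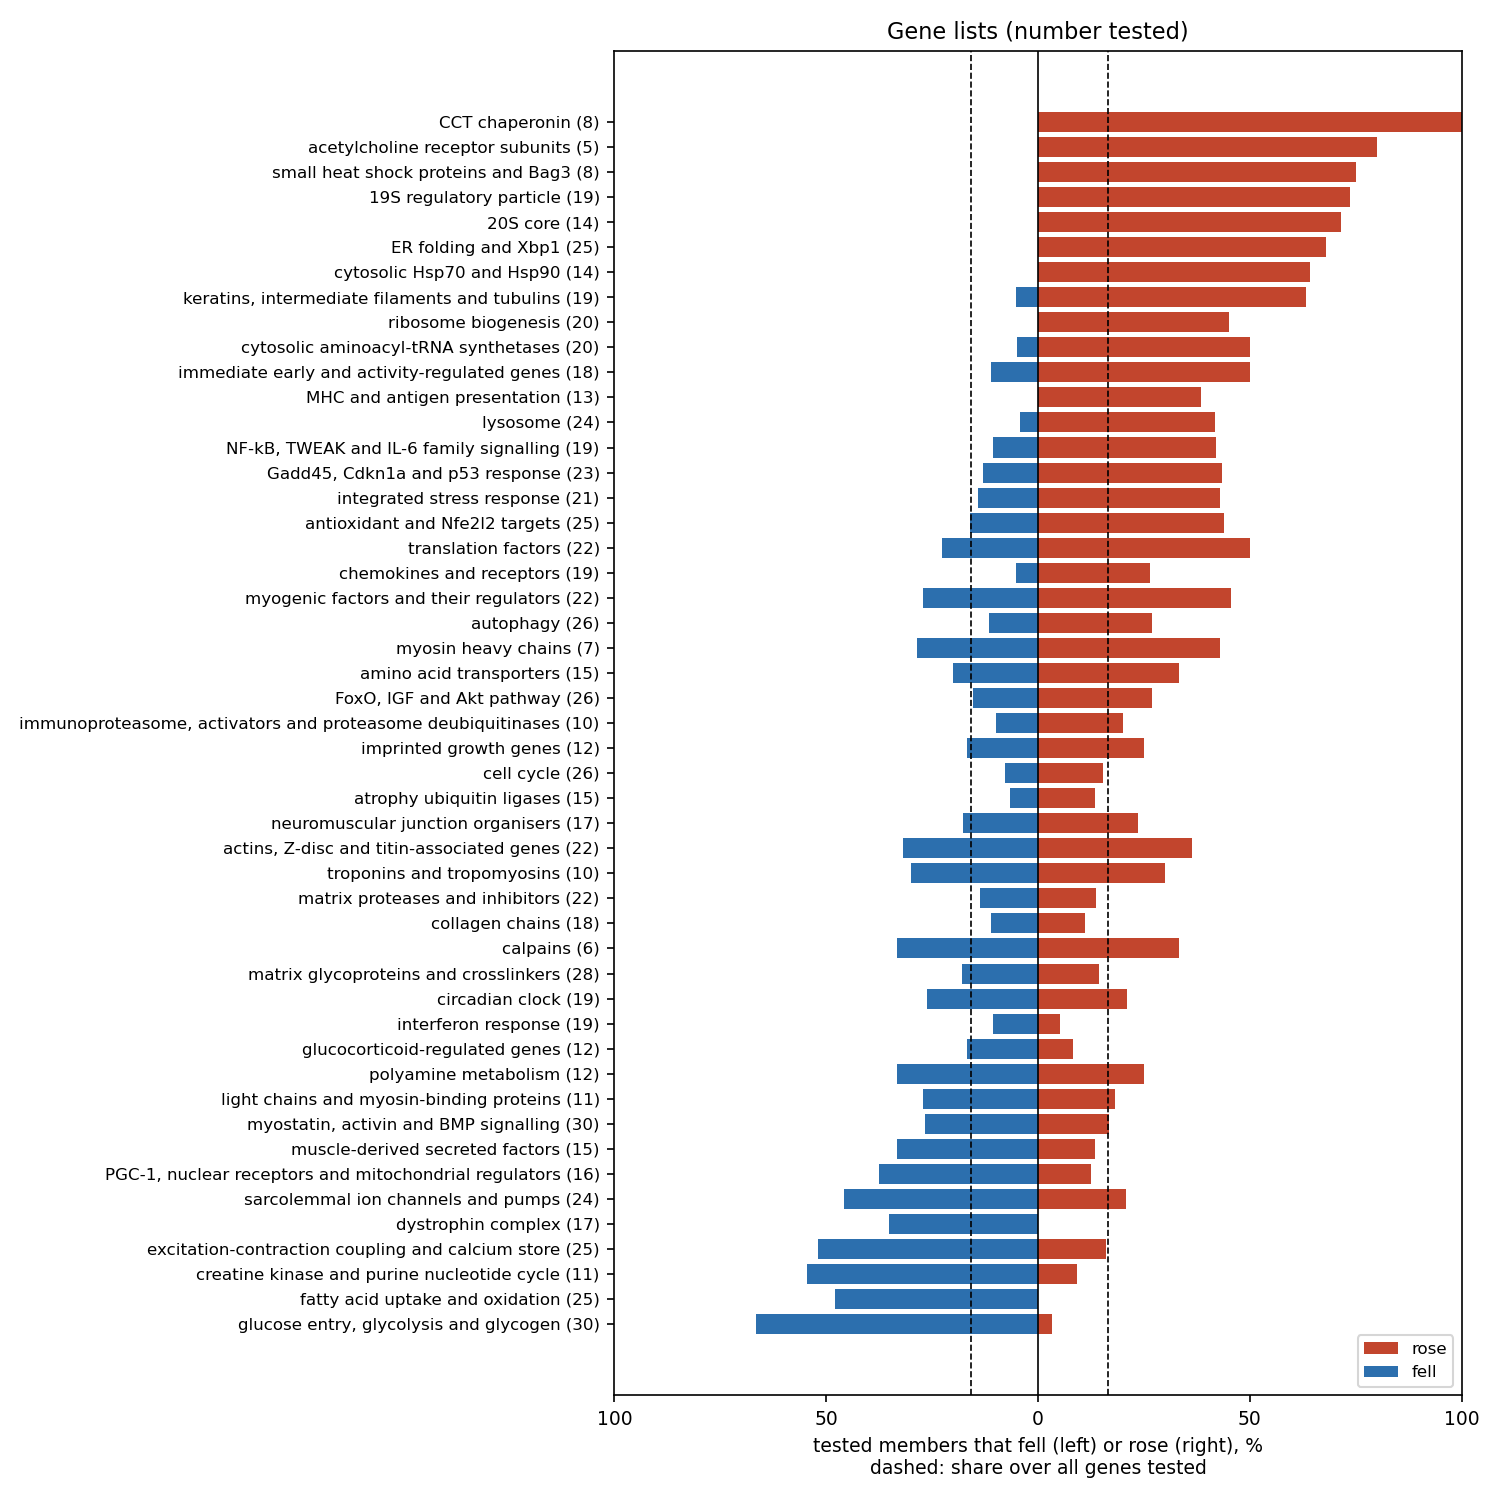
Percent of the tested members of 49 gene lists that rose (right) or fell (left) with denervation, with dashed lines at the shares over all genes tested (16.5% and 15.8%). The CCT chaperonin has all members on the right, and lists of energy supply and calcium handling reach furthest to the left.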

How the data were processed

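Raw read counts per gene were used as deposited, whole numbers made by the authors. Per the submitters' processing notes the builds are GRCm38 and mm10, and the aligner, the counter and strand use are not given in these sources. RNA was extracted with TRIzol and libraries were made with an mRNA kit, per the labels' protocols. The count columns are tied to groups by their names and not to single samples, and libraries were numbered by ascending column number. Of 54446 genes, 24397 had 0 counts in all 9 libraries of the table. Gene positions and exon lengths are from GENCODE M21, which held 53229 of the identifiers at the coordinates of the table.

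In edgeR 4.0.16 (R 4.3.3), genes were filtered with filterByExpr (16146 kept), scaled by TMM and fitted with the quasi-likelihood test over 9 libraries, the other 3 being denervated muscle of a knockout in the same table, which share the estimate of spread. Denervated and innervated WT muscle were contrasted, with Benjamini-Hochberg adjustment over all genes tested and a threshold of 0.05. Standard errors are the size of the log2 difference divided by the root of F. The test was also run on simulated data with far fewer changed genes than were called here and no library set apart. That run cannot show how the test performs in these libraries. Alternatives were DESeq2 1.42.0, limma-voom (limma 3.58.1), other scaling and filters, a test against a log2 fold change of 1, the 6 WT libraries alone, a replicate block and each library left out.

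The comparison, the gene lists and the rule for named genes were chosen with earlier results of these data known. Named were a set of regulators and synaptic genes, the 10 highest and lowest log2 differences of called genes that averaged 8 CPM or more, had groups that were apart and no provisional symbol (such as Gm or Rik), the 8 greatest rises and drops in mean CPM, up to 5 called genes in each direction of a list by adjusted p, and members of lists of at most 12 genes. Some genes that met the rule are not reported here. Annotated exons shared with another gene covered over 20% of 15 named genes (Igf2, Mt2, Pln, Mybph, Tuba4a, Irs1, Cdkn1c, Hspb2, Gabarapl1, Capn2, Usp14, Hdac4, Atp2a1, Cmya5, Timp3), whose counts are less certain. Counts of 0 allow up to 3 counts, and that limit covers counting error only. Other tables of the series were not used here.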

Additional observations from a re-analysis of the deposited data

How the results depend on the processing

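A test against a log2 fold change of 1 called 275 genes higher and 249 lower. With each library left out in turn, 1741 to 2692 genes were higher and 1768 to 2591 lower, and those fits leave 2 libraries in a group. The other alternatives stayed within 1.5 times of 2661 and 2549: DESeq2 gave 2749 and 2704, limma-voom 2522 and 2527, DESeq2-type size factors 2612 and 2577, no filter 2842 and 2373, a mean of at least 5 CPM 2106 and 2047, and the 6 WT libraries alone 2451 and 2364.
The replicate block, by the number that column names of both groups share, gave 2538 and 2496. Deviations of same-numbered libraries correlated at 0.184, 0.0855 and 0.354, and each innervated library correlated best with its own number, a hint from the data. The labels do not say what the number stands for, so the main test used no pairing, and whether libraries share an animal was not tested. The block ended 8 of 261 calls of named genes.
Chrne turned direction in 3 fits: -0.188 without denervated library 1, -0.117 without innervated library 3 and -0.034 without innervated library 2 and denervated library 1. Its differences with 1 library left out ran from -0.188 to 0.175. For Ddx3y the range was -0.00593 to 0.188, with the lower value without innervated library 2. Neither gene was called in these fits, and the cause was not tested.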
